A study of Mus musculus with 45 samples.

Results

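The growth hormone and IGF axis was followed through 10 genes that were chosen by name. They were Ghr and Stat5b, which receive and relay the growth hormone signal, Igf1, Igfals, Igfbp1, Igfbp2 and Igfbp3, which encode the circulating growth factor and its carriers, and Socs2, Socs3 and Cish, which encode inhibitors of cytokine signalling. Each member was the row of the authors' combined expression table with that gene symbol, and all 10 were found among the 22080 genes of the table. No filter on low values was applied, so all 10 were tested in every comparison.

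The study asked how extracts of a Mexican Ganoderma lucidum strain, a medicinal mushroom, and the cholesterol-lowering drug simvastatin acted in mice on a high-cholesterol diet. Male C57BL/6 mice aged 7 weeks were divided into 5 diet groups of 8 mice. At day 43 they were sacrificed after 8 h without food and water. The Control group received the AIN-93 diet. The HCD group received this diet with 0.5% cholesterol. In HCD+Gl-1 and in HCD+Gl-2, 0.5% cholesterol was combined with 1.0% of a lyophilized extract. The Gl-1 mushrooms were grown on oak sawdust and the Gl-2 mushrooms on the same sawdust with 10 mM acetylsalicylic acid (ASA). The HCD+Sim group received 0.5% cholesterol and simvastatin at 0.03% of the diet by weight. Cholesterol was therefore shared by every group except Control. Liver, kidney and brain gave 15 tissue and diet groups with 3 arrays each. Pools A and B of a group each held RNA of 4 mice, and pool C was a mixture of A and B, so a group rested on 2 separate pools. An array thus measured pooled animals, and p-values reflected the spread between pools, part of which was technical. The fit counted the 3 arrays of a group as independent although C was not, so p-values, standard errors and intervals can be too small.

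As background, growth hormone from the pituitary binds the receptor encoded by Ghr on hepatocytes and other cells, and the receptor-bound kinase JAK2 then activates STAT5. In liver, STAT5 raises transcription of Igf1 and of Igfals, whose protein joins IGF-I and IGFBP-3 in a stable circulating complex. STAT5 also induces Cish, Socs2 and Socs3, whose proteins dampen the signal at the receptor, and in mice the pulsatile male rhythm of growth hormone keeps many liver genes at different levels in males and females. Igfbp1 is known as a rapidly regulated hepatic gene that insulin represses through FoxO factors.

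The 45 arrays had medians of 6.76 to 6.92 on the log2 scale, and the correlation between arrays of 1 group was 0.985 to 0.997 over all genes. The free-text description of the liver and kidney samples named brain, whereas their titles named liver and kidney. The titles were followed, since 10 of 10 hepatocyte genes were highest in liver, 10 of 10 kidney genes in kidney, and 9 of 10 neuron and glia genes in brain. The liver HCD+Sim arrays stood apart for genes of exocrine pancreas, with a mean over 11 genes of 7.41 (A), 8.01 (B) and 6.27 (C) against 6.06 to 6.33 on the other liver arrays. Their mean over 12 skeletal muscle genes was 7.57, 7.92 and 6.55, while the Control liver arrays lay at 6.86 to 7.08 and the rest at 6.26 to 6.63. Pool C, labelled as a mixture of A and B, was on both lists below both of them.

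The first question was where each gene was expressed. Under the Control diet, 8 of the 10 members differed between liver and kidney (limma, adjusted p of 0.05 or less), where 48.4% of all genes did. All 10 differed between liver and brain (70% of all genes) and 8 between kidney and brain (59.1%). Many genes differ between tissues, and the order of the tissues for each member is therefore described next. In bulk tissue, fewer cells of a type and less RNA per cell cannot be told apart.

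Ghr, encoding the growth hormone receptor, was close to the same level in liver and kidney and much lower in brain. Its log2 values under Control were 11.31, 11.30 and 11.25 in liver (pools A, B and C), 11.38, 11.36 and 11.47 in kidney, and 6.41, 6.25 and 6.44 in brain. The brain arrays were all far below the others, by 4.92 on the log2 scale against liver (30.3-fold, adjusted p = 2.31e-40). Liver and kidney differed by -0.12 (adjusted p = 0.117), and their arrays overlapped in 2 of the 5 diets. Stat5b, which encodes the transcription factor downstream of the receptor, was ordered liver, kidney, brain in 5 of 5 diets without overlap. Its log2 values were 8.69 to 9.14 in liver, 8.23 to 8.54 in kidney and 7.72 to 8.15 in brain over all diets.

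Igf1, the gene of the hormone itself, had log2 values of 11.52 to 11.78 over the 15 liver arrays, 7.30 to 7.64 in kidney and 7.03 to 7.35 in brain. Liver was above kidney by 4.26 under Control (19.2-fold, adjusted p = 3.41e-38), and the step from kidney to brain was small (0.30, adjusted p = 5.89e-05) though present in 5 of 5 diets. Igfals, which encodes the acid-labile subunit of the circulating complex, followed the same order, with 9.14 to 9.99 in liver, 6.69 to 7.26 in kidney and 5.78 to 6.48 in brain. Its liver level under Control was 6.41-fold that of kidney and 11.6-fold that of brain, where its values lay below all array medians.

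The 3 binding protein genes had 3 different orders of size. Igfbp1, whose protein is a short-lived carrier, was ordered liver, kidney, brain in 5 of 5 diets, and its kidney arrays spanned only 7.38 to 7.62. Igfbp2, whose protein is an abundant carrier of fetal and fasted serum, was ordered liver, brain, kidney in 5 of 5 diets, with 10.92 to 11.43 in liver, 7.88 to 8.35 in brain and 6.42 to 6.95 in kidney. Igfbp3, encoding the main carrier in serum, was highest in kidney. Its log2 values were 9.76 to 10.26 in kidney, 7.70 to 8.18 in liver and 6.64 to 6.95 in brain, and kidney, liver and brain did not overlap in any diet. Under Control, liver was below kidney (log2 difference -1.94, adjusted p = 4.11e-23). Igfbp1 and Igfbp3 are neighbours on chromosome 11, at chr11:7197787-7202546 and chr11:7206086-7215498 of GRCm38.p6, with 3539 bases between them and no other gene wholly in the gap. Igfbp1 was highest in liver and Igfbp3 in kidney.

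The inhibitor genes differed less between tissues. Socs2 under Control was 9.38, 9.61 and 9.07 in liver, 8.40, 8.19 and 8.29 in kidney and 8.15, 8.04 and 8.25 in brain. All liver arrays were above the kidney arrays in 4 of 5 diets, and the exception was HCD+Gl-2. The difference between kidney and brain under Control was 0.15 (adjusted p = 0.389). Socs3, whose protein chiefly restrains IL-6 family receptors, was higher in liver than in kidney (0.66, adjusted p = 5.41e-06), and its kidney and brain arrays overlapped in 5 of 5 diets. Cish, the founding member of this inhibitor family, overlapped between liver and kidney in 5 of 5 diets and was lower in brain by at least 1.15 in every diet, as group means.

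Short promoter stretches are shown for the members in which the 9-letter STAT motif TTCNNNGAA, which reads alike on both strands, was found, because STAT5 acts through sites of this form. They come from RefSeq windows on GRCm38.p6 that run from 250 bases before a gene's annotated start to 50 bases from it onward. Windows were given for 9 of the 10 members (14 windows in all), Socs2 excepted. The motif was found in 4 windows of 3 members, Igfals, Socs3 and Cish, and in 8.30% of all 32851 windows. The FoxO motif GTAAACA, searched on both strands, was found in 1 member window, of Igfals, and in 3.65% of all. The Igfbp1 window held neither motif. Other letter forms of a FoxO site were not searched, so this does not show that such a site is absent. Capitals mark the motif letters, and each line is read 5′ to 3′ on the gene's strand.
Cish, chr9:107296654-107296683, plus strand: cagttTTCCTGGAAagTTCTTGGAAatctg
Socs3, chr11:117969501-117969530, minus strand: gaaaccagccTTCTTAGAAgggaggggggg
Igfals, chr17:24877598-24877627, plus strand: gatctataatTTCTCAGAAaagaggctgag
Igfals, second start, chr17:24878163-24878192, plus strand: ctgccaggtgTTCCTAGAAgaggccctggg
Igfals, FoxO motif on the opposite strand, chr17:24877981-24878010, plus strand: gggcagcaTGTTTACctggggtctttgtac
The Cish stretch holds a pair of STAT motifs, the first beginning at the annotated start and the other 11 bases further on. In Socs3 the motif begins 154 bases before the start, and in the Igfals windows 236 and 58 bases before it. These are matches of letters in a window. No binding was measured here.

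**Figure D1:**
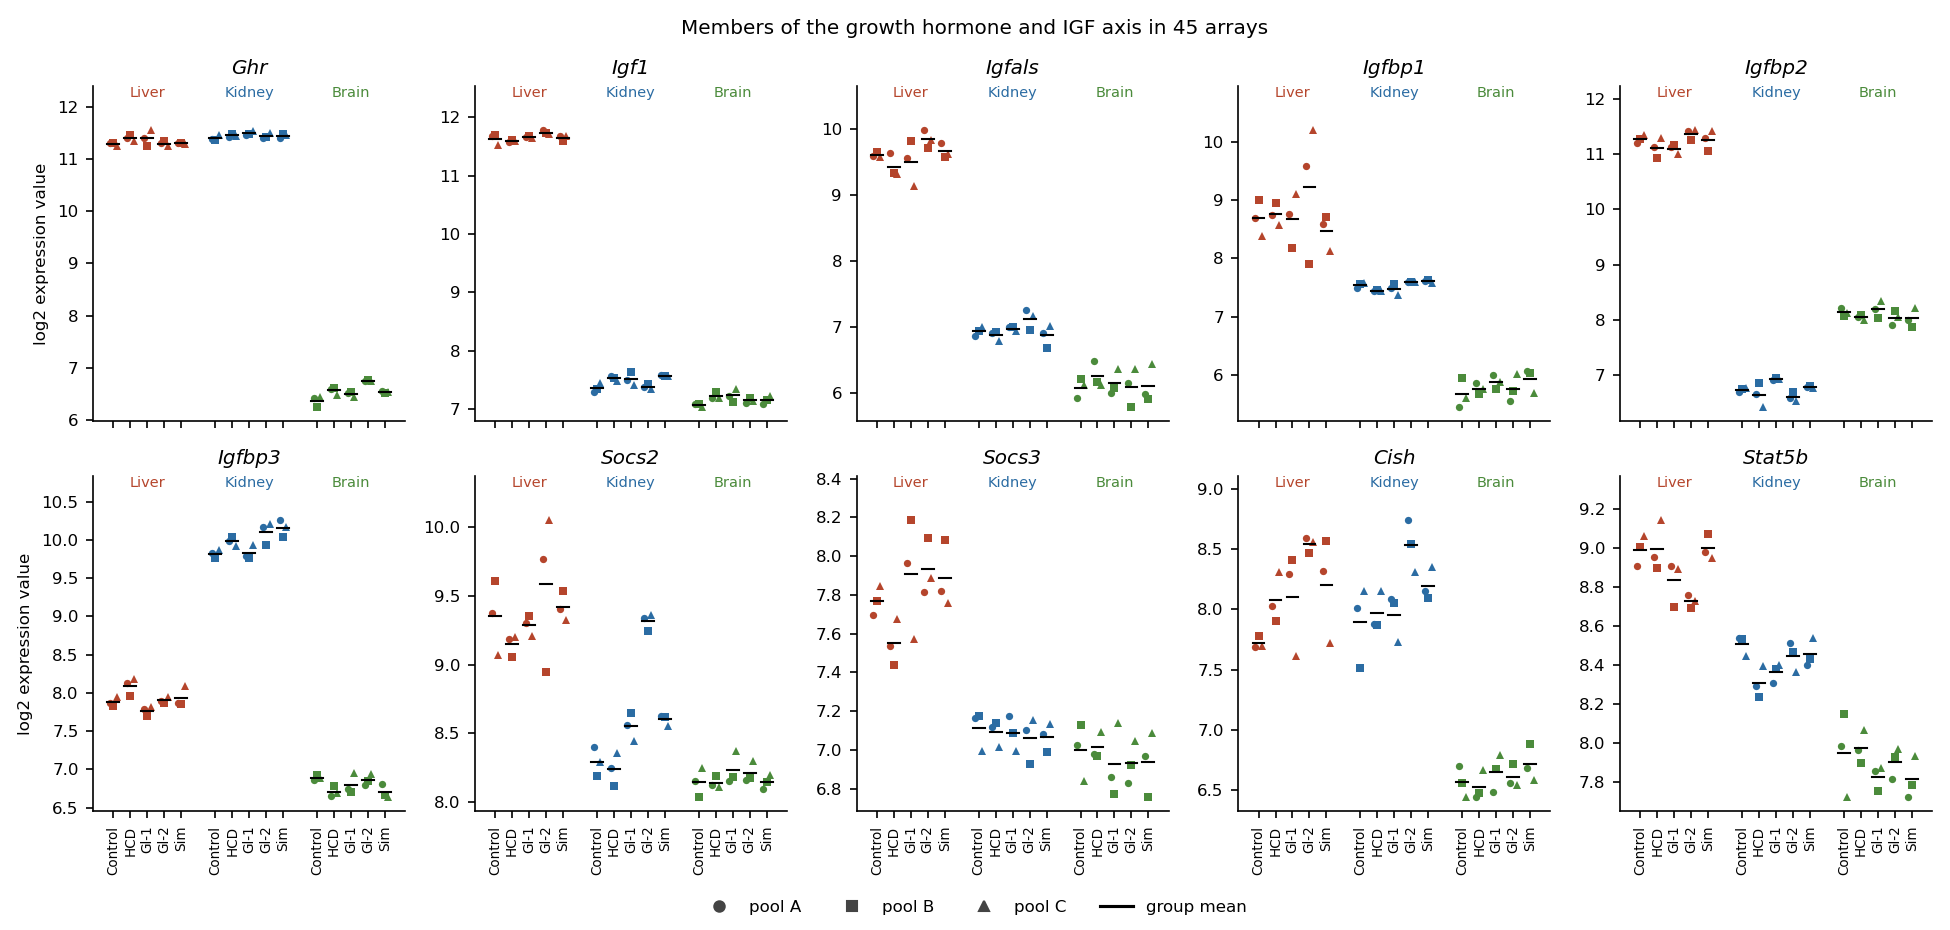
Log2 expression values (vertical axis) of the 10 genes, 1 panel per gene, in the 5 diet groups of liver, kidney and brain (horizontal axis and colours). Symbols are single arrays (circle pool A, square pool B, triangle pool C) and the black line is the group mean. Igf1 and Igfals stand highest in liver, Igfbp3 stands highest in kidney, and the kidney HCD+Gl-2 arrays of Socs2 lie at 9.24 to 9.36, above every other kidney array.

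Other genes of ligand and receptor type showed a different distribution. Igf1r, the gene of the IGF-I receptor, had log2 values of 6.61 to 6.98 in liver, 10.76 to 10.92 in kidney and 8.95 to 9.23 in brain. Liver, which had the highest Igf1, thus had the lowest Igf1r, by -4.05 against kidney under Control (adjusted p = 1.39e-34). Igf2, a fetal growth factor gene, was highest in brain, at 8.91 to 9.63 against 6.63 to 7.07 in liver and 6.76 to 7.13 in kidney. Stat5a, the near relative of Stat5b, had log2 values of 7.76 to 8.10 in liver, 7.82 to 8.14 in kidney and 6.87 to 7.21 in brain.

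Against these tissue differences the diets moved few members. A gene is called DE here, after the study's thresholds, when its absolute log2 fold change was above 0.7 and its adjusted p was 0.05 or less, and changed when its adjusted p alone passed. Each treatment was compared with HCD, HCD with Control, each treatment with Control, and the 2 extracts with each other. The comparisons with HCD share the 3 HCD arrays of a tissue, and those with Control share the Control arrays. Over the 24 diet comparisons, DE calls were made for Socs2 (kidney) and Cish (liver). Changes below the fold threshold were called for Igfbp3 (liver) and Ghr (brain). Igf1, Igfals, Igfbp1, Igfbp2, Socs3 and Stat5b were called in none of the 24 by limma, although all of these except Igfbp1 had an unadjusted p under 0.05 in some of them.

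**Figure D2:**
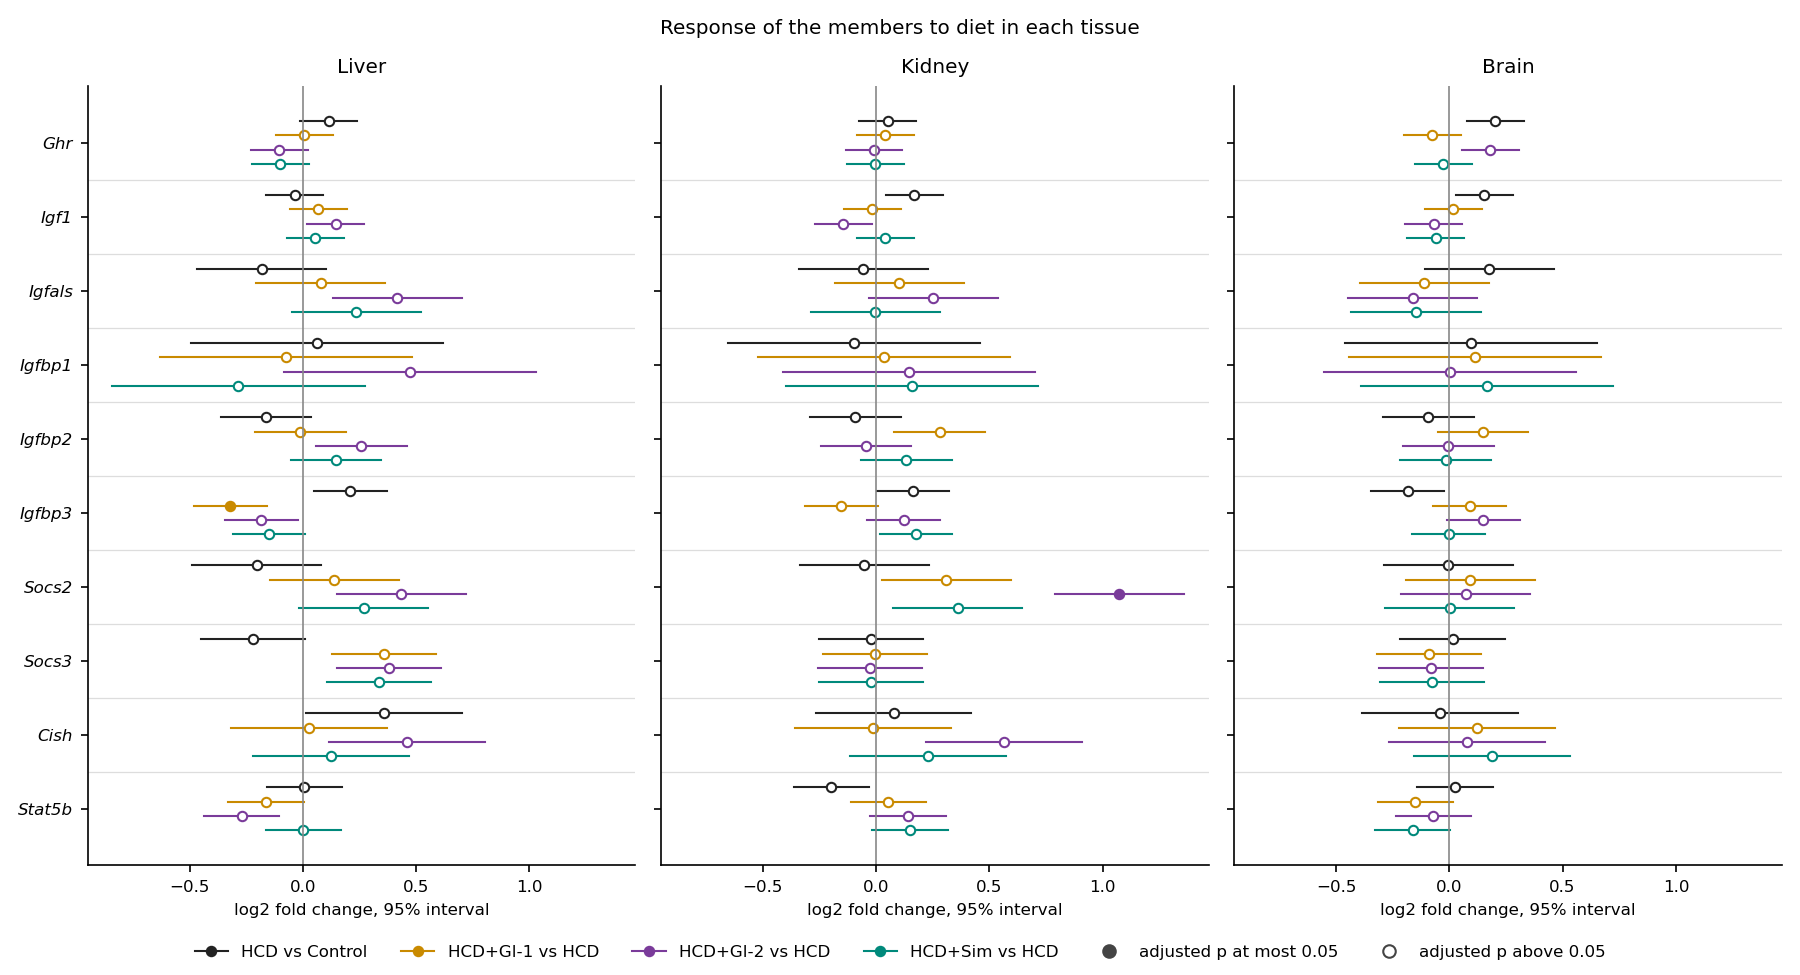
Log2 fold change (horizontal axis) of each of the 10 genes in liver, kidney and brain for HCD over Control and for either extract or simvastatin over HCD. Points are limma estimates with 95% intervals, and filled points have an adjusted p of 0.05 or less. The filled points are Igfbp3 in liver for HCD+Gl-1 (-0.32) and Socs2 in kidney for HCD+Gl-2 (1.07).

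Socs2 had the largest diet difference of the members. Its protein is a component of a ubiquitin ligase that binds the activated growth hormone receptor. In kidney its log2 values were 9.34, 9.24 and 9.36 under HCD+Gl-2 and 8.25, 8.12 and 8.36 under HCD. Under Control they were 8.40, 8.19 and 8.29, under HCD+Gl-1 8.56, 8.64 and 8.44, and under HCD+Sim 8.63, 8.62 and 8.56. All 3 HCD+Gl-2 arrays lay above all 12 other kidney arrays. Socs2 rose by 1.07 against HCD (SE 0.14, 95% interval 0.79 to 1.36, 2.11-fold, adjusted p = 1.93e-06). It was also higher than under Control, by 1.02 (2.03-fold, adjusted p = 1.17e-05), and than under HCD+Gl-1, by 0.76 (1.7-fold, adjusted p = 0.00181). With pools A and B alone the last difference was 0.69 (adjusted p = 0.0427), changed but just under the fold threshold. In the HCD+Gl-1 and HCD+Sim kidneys its difference from HCD was 0.31 and 0.36, without overlap of the arrays, but neither passed the adjusted threshold (adjusted p = 1 and 0.637).

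Socs2 was the only 1 of the 10 members called DE in kidney for HCD+Gl-2 against HCD, where 0.335% of all genes were called DE and 0.996% changed. The same single call was made against Control (0.217% of all genes DE, 0.874% changed) and against HCD+Gl-1 (0.181% DE, 0.394% changed). Cish was 8.74, 8.55 and 8.31 in the HCD+Gl-2 kidneys and 7.88, 7.87 and 8.16 in the HCD kidneys. The arrays did not overlap, and the difference of 0.56 did not pass (adjusted p = 0.116). Pool C was the lowest of the HCD+Gl-2 arrays, and with pools A and B alone the Cish difference was 0.77 (adjusted p = 0.00133). Socs3 in kidney stayed between 6.93 and 7.18 over all 15 arrays.

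Immediate early genes, which respond within minutes to many stimuli, moved with Socs2 in the kidney. The mean over 16 of them was 8.93, 8.60 and 9.03 on the HCD+Gl-2 kidney arrays and 7.15 to 7.49 on the other kidney arrays. Of the 16, 14 were DE against HCD, beside 0.335% of all genes. Egr1, for example, was at 10.73, 10.44 and 10.80 in these arrays. Adamts1, a secreted protease listed with the IGFBP genes and itself quickly inducible, rose by 0.71 against HCD (adjusted p = 1.7e-05), from 7.97, 8.08 and 8.18 to 8.81, 8.58 and 8.98. In that comparison it was the 1 changed gene of 10 on the list of other IGFBPs and IGFBP proteases. The part of the immediate early response in the Socs2 result was not tested.

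The Socs2 difference was compared between tissues. In brain, Socs2 kept within 8.04 to 8.37 over the 15 arrays, and the HCD+Gl-2 effect against HCD was larger in kidney than in brain by 1.00 (SE 0.20, 95% interval 0.60 to 1.40, adjusted p = 0.00511). That comparison was added after the Socs2 values had been seen. It called 1 of the 10 members, and 0.466% of all genes. Between liver and kidney the effect differed by -0.64 (95% interval -1.04 to -0.24, adjusted p = 0.174), which did not pass the threshold over all genes.

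In the liver, Socs2 and Igfbp1 were widely scattered between the HCD+Gl-2 arrays. Socs2 was 9.76, 8.94 and 10.05 there, against 9.19, 9.06 and 9.20 under HCD. Igfbp1 was 9.59, 7.91 and 10.20, against 8.75, 8.96 and 8.57. For both genes pools A and C were above all HCD arrays and pool B was below all of them, so the group means differed by only 0.44 (adjusted p = 0.116) and 0.47 (adjusted p = 0.505). Without pool B, Socs2 was higher by 0.76 (adjusted p = 8.18e-06) and Igfbp1 by 1.14 (adjusted p = 0.000175), so 1 array decided both calls. The HCD+Gl-2 group then held only pool A and the mixture C, which are not separate pools, so these adjusted p-values are too small to be taken at face value. The immediate early genes were split in the same way, with list means of 8.51, 7.46 and 8.86 on the HCD+Gl-2 arrays and 7.16 to 7.68 on the other liver arrays. Egr1 was 10.72, 6.98 and 11.16, Fos 8.66, 6.55 and 9.59, and Jun 9.56, 7.29 and 10.01, with pool B the low array each time. Of this list, 11 of 16 genes changed in the liver for HCD+Gl-2 against HCD and 9 were DE. Of all genes, 1.7% changed and 0.303% were DE. Among the changed genes, the HCD+Gl-2 arrays of Egr1, Fos, Jun, Nr4a1 and Zfp36 overlapped those of HCD. Their part in the Socs2 and Igfbp1 values was not tested.

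**Figure D3:**
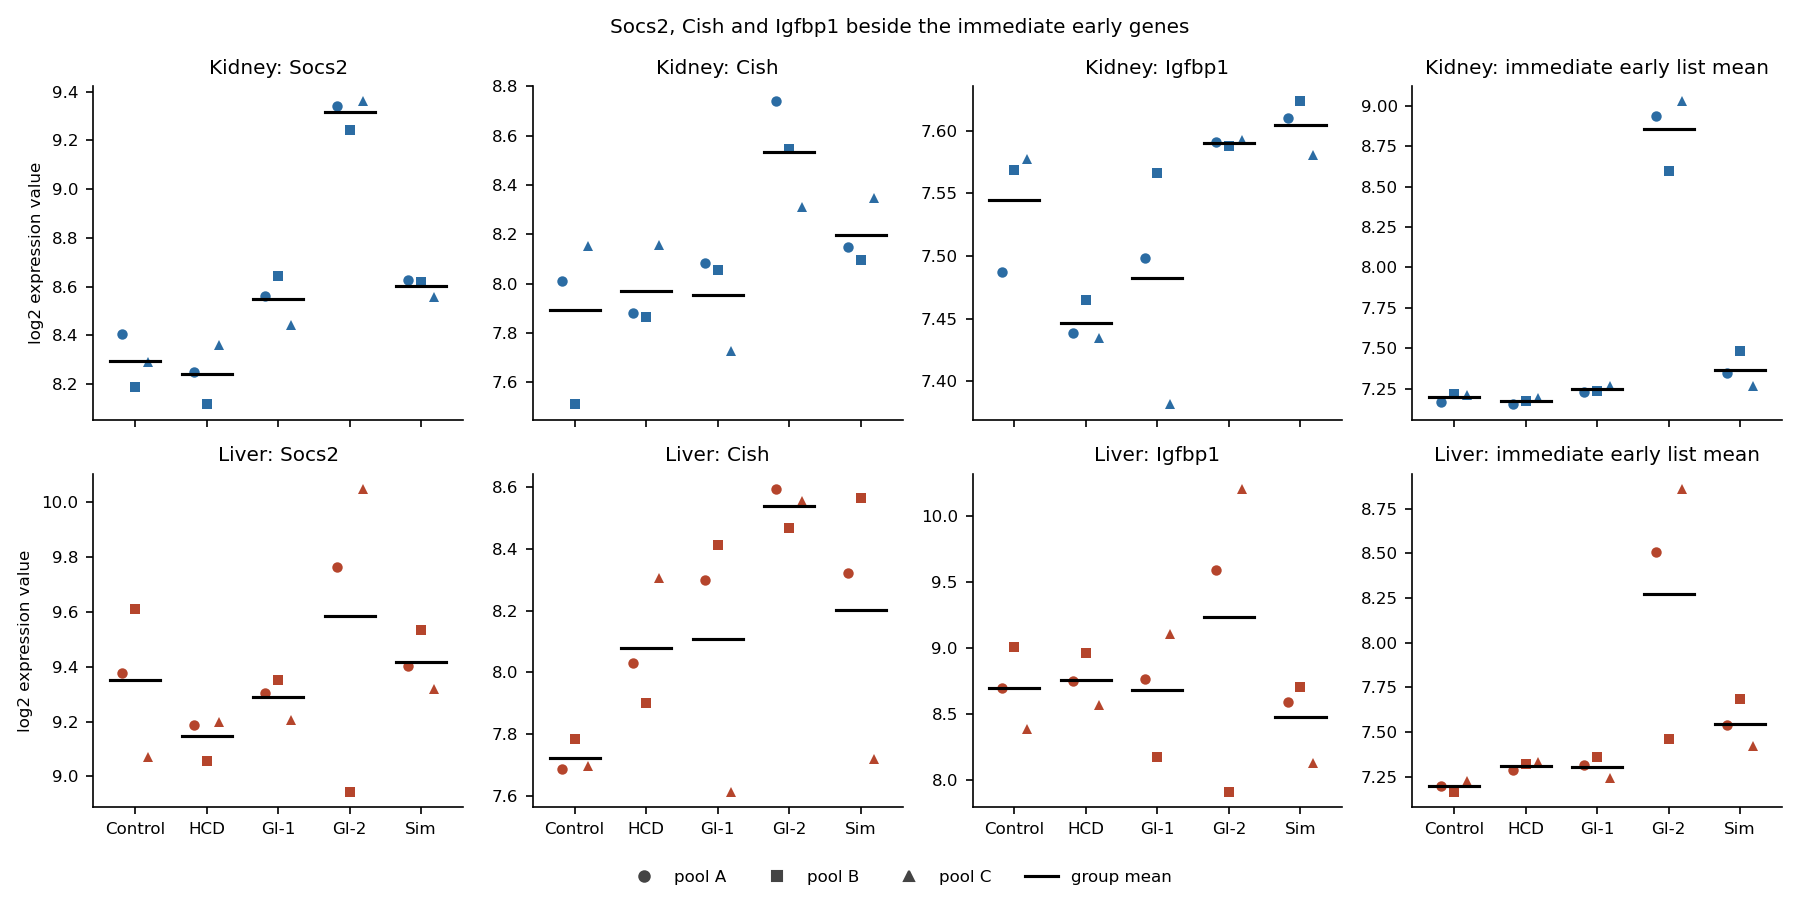
Log2 values (vertical axis) of Socs2, Cish, Igfbp1 and the mean of 16 immediate early genes by diet (horizontal axis), in kidney (upper row) and liver (lower row). Symbols are pools A (circle), B (square) and C (triangle) and black lines are group means. In the liver HCD+Gl-2 group, pool B lies below pools A and C for Socs2, Igfbp1 and the immediate early mean, while Cish is at 8.47 to 8.59 in all 3.

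Cish, the member with a pair of STAT motifs at its start, did not share that split. In the liver its log2 values were 8.59, 8.47 and 8.56 under HCD+Gl-2, 7.69, 7.78 and 7.70 under Control and 8.03, 7.90 and 8.31 under HCD. All HCD+Gl-2 arrays lay above all Control and HCD arrays. Cish rose by 0.82 against Control (SE 0.17, 95% interval 0.47 to 1.16, 1.76-fold, adjusted p = 0.00262) and was 0.46 above HCD (adjusted p = 0.192). It was the only 1 of 10 members called DE in liver for HCD+Gl-2 against Control, where 0.584% of all genes were DE and 2.86% changed. With the liver arrays fitted alone, the adjusted p was 0.0711. The difference between HCD and Control was 0.36 (adjusted p = 0.456).

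In the HCD+Gl-1 and HCD+Sim livers, Cish was 8.30, 8.41 and 7.61 and 8.32, 8.57 and 7.72. Pool C was below both A and B by over 0.5 in each, although it was labelled as their mixture. The 10 genes in 15 groups gave 150 sets of pools A, B and C. Pool C was above both A and B in 67 of them and below both in 57. Averaged over the groups, it was above both for 41.0% of all genes. It lay outside the range of A and B by over 0.5 in 3 cases, the Cish sets given here and the liver HCD+Gl-2 Igfbp1. The pool C array of HCD+Sim was also the 1 with the low pancreas and muscle means given above, and their part in the Cish values was not tested. Cish in HCD+Sim was 0.48 above Control (adjusted p = 0.182), and without pool C 0.72 (adjusted p = 0.0195). The genes whose values over the 15 liver arrays were most like those of Cish were Plk3 (Pearson r = 0.85), Hax1 (r = 0.82) and Klf10 (r = 0.82), given as a description over arrays that share groups and pools.

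The remaining liver values of HCD+Gl-2 were small differences from HCD. Of the 10 members, 8 had an unadjusted p under 0.05 (6 higher and 2 lower), where 12.6% of all genes did, and none was changed or DE by limma after adjustment (1.7% and 0.303% of all genes). The arrays of 7 members did not overlap, against 15.2% of all genes. The median log2 difference of the members was 0.32, and that of all genes 0.01. Igf1 was 11.78, 11.72 and 11.71 under HCD+Gl-2 and 11.58, 11.61 and 11.60 under HCD, a difference of 0.15 without overlap (adjusted p = 0.295). Igfals was 9.99, 9.71 and 9.85 against 9.64, 9.34 and 9.32, a difference of 0.42 without overlap (adjusted p = 0.14). Socs3 was 7.81, 8.10 and 7.89 against 7.54, 7.44 and 7.68, higher by 0.38 and again without overlap (adjusted p = 0.0811). Stat5b was 8.76, 8.69 and 8.73 against 8.95, 8.90 and 9.14, with a difference of -0.27 (adjusted p = 0.0902). Its HCD+Gl-2 arrays were below all arrays of HCD, and the same comparison with Control gave -0.26 (adjusted p = 0.0767).

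Under HCD+Gl-1 the liver gave another call. Igfbp3 was 7.79, 7.70 and 7.82 under HCD+Gl-1, 8.13, 7.96 and 8.18 under HCD and 7.86, 7.82 and 7.95 under Control. Each HCD+Gl-1 array was below each HCD array, and the HCD arrays were above the Control arrays. Igfbp3 fell by 0.32 against HCD (SE 0.079, log2 difference -0.32, 95% interval -0.48 to -0.16, adjusted p = 0.0215), which is below the fold threshold. It was 1 of 10 members changed in this comparison, where 2.48% of all genes changed and 0.163% were DE. The HCD difference from Control was 0.21 (adjusted p = 0.254). Igfbp3 was also lower under HCD+Gl-2 than under HCD, without overlap of the arrays. That difference had an unadjusted limma p under 0.05 but was not called. The HCD+Gl-1 call was not kept when the liver arrays were fitted alone (adjusted p = 0.197) or when only the compared groups entered (adjusted p = 0.381). It was also lost with pools A and B alone (adjusted p = 0.124) and in 4 of 6 omissions of 1 array, pools A or C of either group (highest adjusted p = 0.119). Igfbp7, an IGFBP-related gene outside the member set, fell in the same comparison, from 11.24 ± 0.022 to 10.92 ± 0.097 (SD, n = 3, log2 difference -0.33, adjusted p = 0.00129), without overlap. The liver genes whose values were most like those of Igfbp3 were Upk3b, Bphl and Gm10447, each with r = 0.88 over 15 arrays. Socs3 was also higher under HCD+Gl-1, at 7.96, 8.18 and 7.57, but its arrays overlapped those of HCD and the difference of 0.36 did not pass (adjusted p = 0.0823).

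Cholesterol alone and simvastatin gave no call among the 10 members in liver. For HCD against Control, limma called 0 members changed (1.34% of all genes) and 2 had an unadjusted p under 0.05 (10.3% of all genes). For HCD+Sim against HCD it called 0 (1.1% of all genes) and 1 had an unadjusted p under 0.05 (11.7%). In kidney, 0 members were called by limma for HCD against Control (0.131% of all genes), HCD+Gl-1 against HCD (0.267%) and HCD+Sim against HCD (0.222%). There, 3, 2 and 2 members had an unadjusted p under 0.05, beside 4.47%, 4% and 6.19% of all genes. Igfbp2 in the HCD+Gl-1 kidneys was 6.91, 6.95 and 6.92 against 6.66, 6.86 and 6.42 under HCD, a difference of 0.28 without overlap (adjusted p = 0.639). Igfbp3 in the HCD+Sim kidneys was 0.34 above Control (adjusted p = 0.0773).

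In brain, Ghr was the member with a call. Its log2 values were 6.74, 6.76 and 6.75 under HCD+Gl-2, 6.41, 6.25 and 6.44 under Control and 6.60, 6.62 and 6.48 under HCD. They were 6.52, 6.53 and 6.43 under HCD+Gl-1 and 6.56, 6.52 and 6.53 under HCD+Sim. The HCD+Gl-2 arrays were the 3 highest of the 15. All 15 values, 6.25 to 6.76, lay low on arrays whose medians were 6.76 to 6.92. Ghr rose by 0.38 against Control (SE 0.062, 95% interval 0.26 to 0.51, 1.31-fold, adjusted p = 0.00115), 1 of 10 members changed where 1.47% of all genes changed and 0.186% were DE. Against HCD the difference was 0.18 (adjusted p = 0.523), and with only the compared groups fitted the difference from Control had an adjusted p of 0.513. In the brain comparisons with HCD, limma called 0 members for Gl-1, for Gl-2 and for simvastatin (0.0181%, 0.0362% and 0.0181% of all genes changed). At an unadjusted p under 0.05 there were 0, 1 and 0 members, beside 5.55%, 6.65% and 5.53% of all genes. For HCD against Control it called 0 (0.0543% of all genes), with 3 at an unadjusted p under 0.05 (6.44% of all genes).

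In the comparisons not yet described, limma called 0 members. Against Control these were liver HCD+Gl-1 (3.58% of all genes changed), liver HCD+Sim (1.54%), kidney HCD+Gl-1 (0.0634%), kidney HCD+Sim (0.0906%), brain HCD+Gl-1 (0.0136%) and brain HCD+Sim (0.0861%). At an unadjusted p under 0.05 there were 1, 1, 1, 3, 2 and 2 members, where 17.9%, 11.8%, 3.3%, 6.06%, 9.1% and 10.4% of all genes were found. For Gl-2 against Gl-1, 0 members changed in liver (3.94% of all genes) and brain (0.0136%), with 4 and 1 at an unadjusted p under 0.05 (19.8% and 5.49%).

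Gh, the growth hormone gene itself, differed more between the brain groups than any member did. Its log2 values were 6.56, 6.55 and 7.46 under Control, 8.06, 8.76 and 7.64 under HCD and 9.10, 9.20 and 8.95 under HCD+Gl-1. They were 7.29, 7.25 and 7.21 under HCD+Gl-2 and 7.63, 7.76 and 8.10 under HCD+Sim. The HCD arrays were all above the Control arrays, the HCD+Gl-1 arrays were above those of every other brain group, and the HCD+Gl-2 arrays were below all HCD arrays. Gh rose by 1.29 for HCD against Control (2.45-fold, adjusted p = 5.06e-05) and by 0.93 for HCD+Gl-1 against HCD (adjusted p = 0.031). It fell by 0.90 for HCD+Gl-2 against HCD (log2 difference -0.90, adjusted p = 0.0296). Between the extracts the difference was -1.83 for Gl-2 against Gl-1 (adjusted p = 2.98e-08). Of the 13 genes of pituitary and hypothalamic control, Gh was the only one changed in these brain comparisons. The other 6 pituitary hormone genes, Prl, Pomc, Cga, Tshb, Lhb and Fshb, were not called in brain, and Prl, expressed by a related pituitary cell type, was at 4.84 to 6.02. Whether pituitary tissue was present in some brain pools was not tested. Gh was 6.00 to 6.46 in liver and 5.78 to 6.21 in kidney. Liver Igf1 spanned 0.25 on the log2 scale over its 15 arrays.

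**Figure D4:**
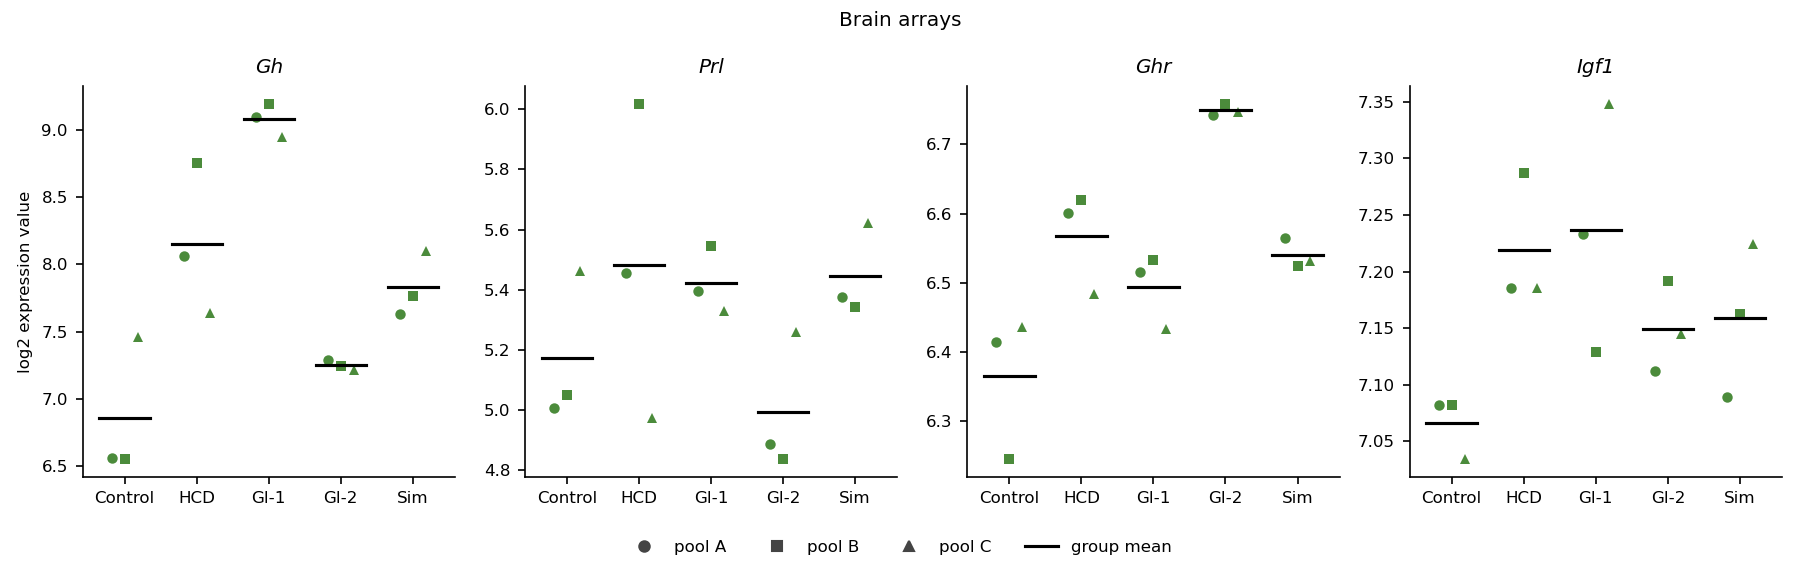
Log2 values (vertical axis) of Gh, Prl, Ghr and Igf1 in brain by diet (horizontal axis). Symbols are pools A (circle), B (square) and C (triangle) and black lines are group means. Gh lies at 8.95 to 9.20 under HCD+Gl-1 and 7.21 to 7.29 under HCD+Gl-2, whereas Ghr is highest under HCD+Gl-2 and Igf1 stays within 7.03 to 7.35.

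The other genes of the pathway moved little. Of 7 receptor and ligand genes outside the member set, Prlr, the prolactin receptor gene, was the only one DE against HCD. In kidney it was 6.97, 7.03 and 7.28 under HCD+Gl-1 and 7.88, 7.72 and 7.78 under HCD, without overlap, and it fell by 0.71 (log2 difference -0.71, adjusted p = 0.028). Of 16 JAK-STAT genes, Stat3, which relays IL-6 signals, changed in liver, with -0.37 for HCD against Control (adjusted p = 0.00141) and 0.36 for HCD+Gl-1 against HCD (adjusted p = 0.00242). Stat3 was not DE in either. The 5 other Socs genes (Socs1, Socs4, Socs5, Socs6 and Socs7) were called in 0 of the 24 diet comparisons by limma, and at most 2 of them had an unadjusted p under 0.05 in any. Of 15 genes of insulin, FoxO and fasting responses, Trib1, a pseudokinase gene of hepatic lipid metabolism, was DE in liver for HCD+Gl-2 against HCD (0.70, adjusted p = 0.00334). Its values were 9.52, 8.73 and 9.79 against 8.62, 8.83 and 8.48, and pool B lay within the HCD range. In kidney, Pck1, a gluconeogenic enzyme gene (0.64, adjusted p = 0.000379), and Ddit4, an inhibitor of mTOR signalling (0.62, adjusted p = 0.00079), rose for HCD+Gl-2 against HCD without overlap. Asns, the asparagine synthetase gene, was DE in liver for HCD+Gl-1 against Control (-0.78, adjusted p = 0.0198).

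Of 19 genes of the IL-6 family and the STAT3 acute phase response, 4 changed in liver for HCD+Gl-1 against HCD, all upward. Of all genes, 2.48% changed there. The 4 were Saa2, an acute phase apolipoprotein gene (3.15, adjusted p = 0.0407), Steap4 (0.81, adjusted p = 0.000281), Hp and Lifr. Saa2 was widely scattered, at 10.38 ± 2.18 under HCD+Gl-1 against 7.23 ± 0.29 under HCD (SD, n = 3), without overlap. The highest list mean of the liver arrays, 9.97, was on HCD+Sim pool B. None of this list changed for HCD+Gl-2 or HCD+Sim against HCD by limma, where 9 and 8 of the 19 had an unadjusted p under 0.05, beside 12.6% and 11.7% of all genes.

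Liver genes that growth hormone keeps at sex-specific levels were examined as a downstream readout in these male mice. Of 20 male-biased genes, 19 were measured, and of 22 female-biased genes 17. In HCD+Gl-1 against HCD, 4 male-biased genes rose and none fell, where 2.48% of all genes changed. The median over the list was 0.16, beside -0.01 for all genes. Cyp7b1, an oxysterol hydroxylase gene, was 11.78, 11.47 and 12.12 under HCD+Gl-1 against 10.75, 10.87 and 10.81, and rose by 0.98 (adjusted p = 2.25e-06). Selenbp2 (0.52), Ugt2b38 (0.43) and C8b (0.43) rose as well. For HCD against Control, Cyp7b1 (-0.52) and C8b (-0.35) fell and no male-biased gene rose, where 1.34% of all genes changed. For HCD+Gl-2 against HCD, Alas2 was the 1 gene of 19 that changed (-0.32), beside 1.7% of all genes. For HCD+Sim against HCD, limma called 0. There, 2 of 19 had an unadjusted p under 0.05, no larger a share than the 11.7% of all genes. In kidney, Cyp4a12a, a male-biased cytochrome P450 gene, was DE for HCD+Gl-2 against HCD (-0.84, adjusted p = 0.000171), and in liver Elovl3, a fatty acid elongase gene, was DE for HCD+Gl-2 against Control (-0.77, adjusted p = 0.00475).

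The female-biased genes did not move as a block. Of 17, 5 were DE for HCD against Control, where 0.245% of all genes were, with Cyp2b9 and Cyp3a44 upward and Cyp4a14, Cyp17a1 and Abcd2 downward. Cyp2b9, a cytochrome P450 gene normally low in male liver, was 5.28, 5.17 and 5.62 under Control and 8.71, 7.88 and 9.08 under HCD, an increase of 3.20 (adjusted p = 4.72e-13). Under HCD+Gl-2 it was 5.34, 5.45 and 5.37, within the Control range and below HCD by 3.17 (log2 difference -3.17, adjusted p = 6.39e-13). Under HCD+Gl-1 it was 6.41, 6.07 and 6.96, below all HCD arrays and above all Control arrays (log2 difference from HCD -2.08, adjusted p = 1.84e-07). Under HCD+Sim it was 8.53, 7.47 and 8.52 and overlapped HCD. Cyp17a1 (-1.25), Abcd2 (-1.01) and Cyp3a44 (0.87) were still DE for HCD+Gl-2 against Control, in the direction of the HCD effect. The same genes were also DE for HCD+Gl-1 against Control. These comparisons all share the 3 Control arrays, so they are not separate evidence. Cyp17a1 was scattered under Control, at 8.43 ± 0.81 against 7.29 ± 0.18 under HCD (SD, n = 3). Abcd2 was likewise at 6.98 ± 0.54 against 5.96 ± 0.087. For both genes the Control arrays lay above all arrays of HCD, HCD+Gl-1 and HCD+Gl-2. Cyp4a14, which is also a target of the fatty acid receptor PPARα, rose against HCD under HCD+Gl-2 (1.54) and HCD+Sim (2.42). Acot3, an acyl-CoA thioesterase gene, was the other of 2 list genes DE for HCD+Sim against HCD (0.89, adjusted p = 0.0263), where 0.258% of all genes were DE. The medians of the list were 0.02, -0.07, -0.05 and -0.04 in the 4 comparisons, in the order HCD against Control, Gl-1, Gl-2 and simvastatin.

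**Figure D5:**
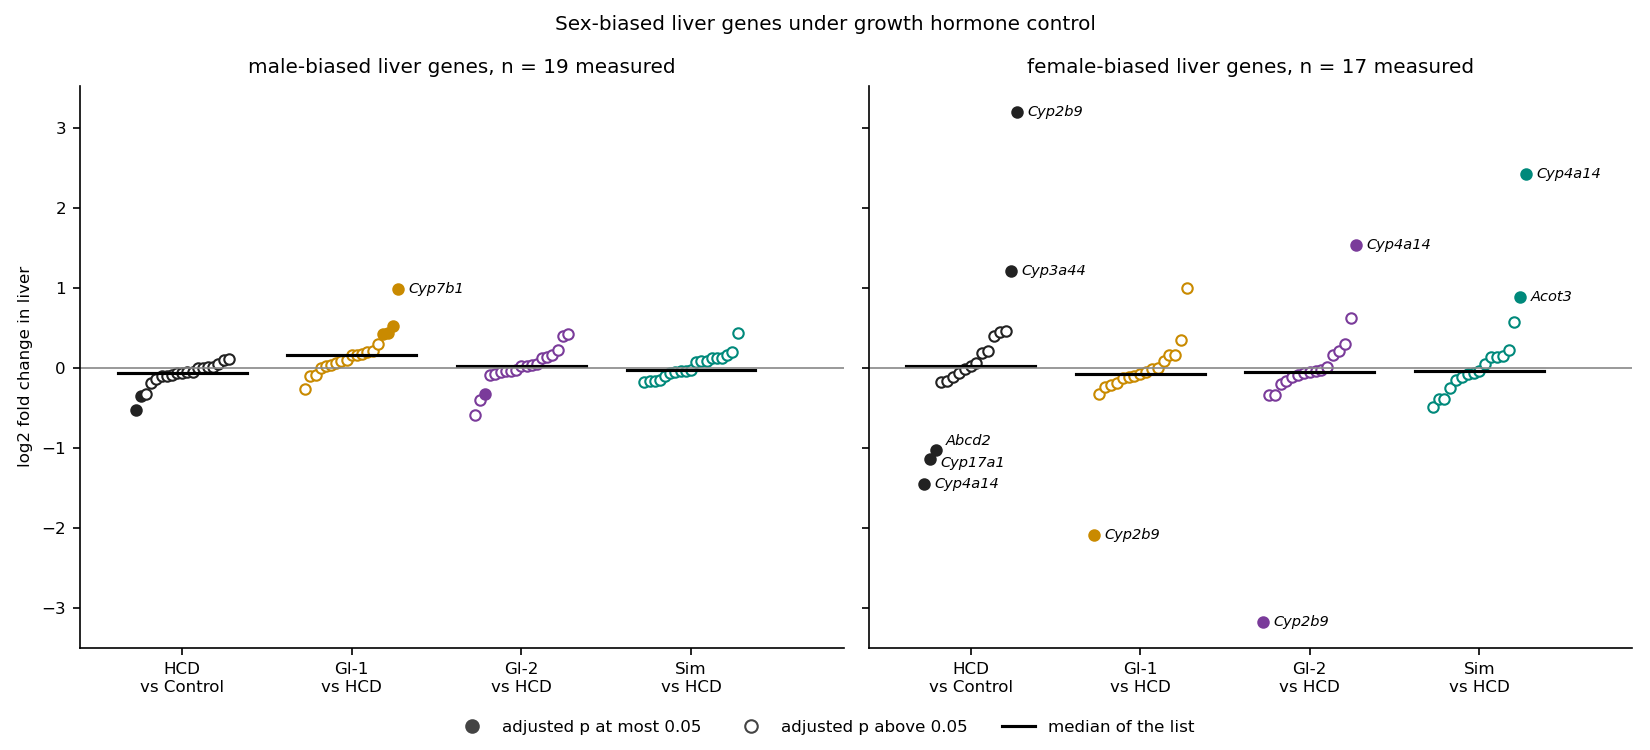
Log2 fold change in liver (vertical axis) of 19 male-biased and 17 female-biased growth hormone dependent genes for the HCD effect and the 3 treatment effects on HCD (horizontal axis). Points are genes, black lines are list medians, and DE genes are named. Cyp2b9 is at 3.20 for HCD against Control and at -3.17 for HCD+Gl-2 against HCD, while the list medians stay within -0.07 to 0.16.

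The diet effects on the members were also compared between liver and each of the other tissues. For each of the 4 comparisons (HCD against Control and the treatments against HCD), limma called 0 of 10 members as differing between liver and kidney, where 0.263%, 0.389%, 0.625% and 0.299% of all genes were called. The numbers with an unadjusted p under 0.05 were 1, 2, 6 and 2, beside 7.13%, 10.4%, 8.89% and 9.59% of all genes. Between liver and brain it called 0 as well (0.326%, 0.362%, 0.598% and 0.0996% of all genes), with 2, 2, 5 and 1 at an unadjusted p under 0.05 (8.77%, 11.5%, 10.5% and 8.45% of all genes). For Stat5b under HCD+Gl-2 the difference between liver and kidney was -0.41 (adjusted p = 0.11) and for Igf1 0.29 (adjusted p = 0.154).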

How the data were processed

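RNA of pooled tissue was hybridised to Affymetrix Mouse Gene ST v1.0 arrays, 45 in all. The authors deposited log2 expression values, background corrected with RMA and quantile normalized (oligo), adjusted with ComBat for batches that are not named in the sources used here, and reduced to 1 probe set per gene by the highest interquartile range. That adjustment can narrow or shift group differences. Tests used limma 3.58.1 in R 4.3.3, with 15 group means over 45 arrays (prior degrees of freedom 7.34, residual 30) and Benjamini-Hochberg adjustment over 22080 genes in each comparison, 13 of them named as dates. Figures used matplotlib 3.10.9 and Python 3.11.15. The script was tested on simulated data. An exact permutation test of 3 against 3 arrays cannot go below p = 0.1, two-sided, so none was used. The number of arrays limits the precision, and no 2 arrays were identical.

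The members and gene lists were chosen with earlier results of these data known. Named genes were all members, Gh, Stat5a, Igf1r and Igf2, DE genes of each list (at most 4 a comparison, by size, with Abcd2 named beyond it), and the 3 genes most like a member called in liver. List genes that changed without being DE were named after their values were seen. Listed genes without a row were Mup1, Cyp2a4, Cyp3a41a, Cyp2c69, Cyp2c40, Hao3 and Prss1. Lists of Kupffer cells and macrophages (8.10 to 8.57), endothelium and stellate cells (8.55 to 8.93) and hepatocytes (13.04 to 13.16) gave these mean log2 values over the liver arrays. Alternatives were other samples in the fit, no fold threshold, pools A and B alone, a dim-gene filter and the pool letter as a block. Further ones were quantile normalization within each tissue, the trend and robust options of limma, and leaving out each array. Coordinates are from RefSeq on GRCm38.p6, since the build of the probe annotation is not given in the sources used here.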

Additional observations from a re-analysis of the deposited data

Results flagged for a closer look

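The response of Socs2 to HCD+Gl-2 against HCD differed between kidney and brain in a test that was added after its values had been seen, and is therefore a description of a gene chosen for that pattern. The kidney effect exceeded the brain effect by 1.00 (log2, SE 0.20, adjusted p = 0.00511), and leaving out single arrays gave 0.94 to 1.06. Between liver and kidney the difference was -0.64 (adjusted p = 0.174) and did not pass.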

How the results depend on the processing

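For the 30 counts of called members (DE, or adjusted p alone for differences between tissues), 462 of 477 alternatives gave a count within 1.5 times the main one. Most of the main counts were 0, and there agreement means only that no member was called. Without a fold threshold, 1 member was called in liver HCD+Gl-1 against HCD (Igfbp3) and 1 in brain HCD+Gl-2 against Control (Ghr). With pools A and B alone, Cish was added in kidney HCD+Gl-2 against HCD (2 members) and Control (2), and in liver HCD+Sim against Control (1). Socs3 was then called in the liver and brain difference (1 member), and Socs2 in kidney HCD+Gl-2 against HCD+Gl-1 (0 members) missed the fold threshold alone (0.69, adjusted p = 0.0427). With each tissue fitted alone, Cish was lost in liver HCD+Gl-2 against Control (0). Leaving out liver HCD+Gl-2 pool B added Igfbp1 or Socs2, and the counts over single omissions ranged from 0 to 2 for liver HCD+Gl-2 against HCD, 1 to 2 against Control and 0 to 1 against HCD+Gl-1. They ranged from 0 to 1 for liver HCD+Sim against Control (pool C of HCD+Sim), 1 to 2 for kidney HCD+Gl-2 against Control (pool C of Control, Cish 0.77, adjusted p = 0.0286), 0 to 1 for the liver and kidney difference (pool C of liver HCD+Gl-2) and 0 to 2 for the liver and brain difference (pool B).

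For the 7 single diet results, 86 of 95 alternatives kept the direction and the side of the threshold, 9 lost the call and 0 reversed. Igfbp3 accounted for 7 of the 9. Leaving out single arrays gave 1.01 to 1.13 for kidney Socs2 against HCD, 0.79 to 0.85 for liver Cish against Control, 0.32 to 0.42 for brain Ghr and -0.38 to -0.28 for Igfbp3, whose call was lost in 4 of 6 omissions. A filter on dim genes left 17105 genes and all 10 members. With the pool letter as a replicate block, the DE members were the same in 39 of 39 comparisons. Most of these had no DE member in either fit. Every group held each letter once, so the block could not alter a fold change. Deviations of same-letter pools correlated at -0.38 to 0.42. They were above 0.1 for every letter in 2 of 24 comparisons, brain HCD+Gl-2 against Control and liver HCD+Gl-2 against HCD+Gl-1, and the blocked adjusted p of brain Ghr was 0.00177. In the others at least 1 letter did not exceed 0.1, which does not show that the letters were unrelated.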
